A study of Mus musculus with 30 samples.

Results

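The clustered protocadherin genes of the mouse lie on chromosome 18, plus strand, in an alpha, a beta and a gamma cluster. They were taken as every gene unit of the deposited transcription table whose symbol starts with Pcdha, Pcdhb or Pcdhg, which gave 36 units of 20541 gene units in all: 14 alpha units, 22 gamma units and 0 beta units. The measurement was TT-seq, which captures and sequences newly made RNA after brief labelling with 4-thiouridine and so reads ongoing transcription, in a mouse embryonic stem cell line labelled dTKO. All groups carried the genotype Suv39h1fl/fl, Suv39h2-/-, Setdb1fl/fl and were treated with auxin and dTAG13, small molecules that trigger degradation of tagged proteins, for 48, 24, 12 or 3 h, or collected at 0 h. The series' design text describes the treatment as ablation of the histone lysine 9 methyltransferases, and all samples come from that one line, so the 0 h cells already lacked Suv39h2. There were 3 libraries at each of the 5 times, described as biological repeats, and each had been sequenced in 2 runs.

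Clustered protocadherins are cadherin-type adhesion proteins best known from neurons, where each cell transcribes its own small choice of them and uses the resulting surface code to tell its own branches from those of other cells. Each alpha or gamma gene has a variable first exon with a promoter of its own, spliced to constant exons that all genes of that cluster share, whereas each beta gene is a single exon without shared exons. The variable promoters depend on CTCF and cohesin loops to enhancers, and are silenced by DNA methylation and, in mouse neurons, by a domain of histone H3 lysine 9 trimethylation that needs Setdb1.

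Values are reads per unit after the authors' division by 1 size factor per library, here called scaled reads. The libraries held 37122086 to 42293639 reads in all units, and 16360675 to 22863801 in genes other than the ribosomal precursor Rn45s. A change is a log2 difference of scaled reads + 1, fitted with limma over all 15261 genes whose mean over the 15 libraries was at least 10, and was called at a Benjamini-Hochberg adjusted p under 0.05. On this scale the median of all tested genes was -0.24 (3 h), 0.18 (12 h), -0.08 (24 h) and -0.37 (48 h), so changes are also given after rescaling each library so that these medians were near 0. At 48 h 7.65% of tested genes rose and 58.4% fell. Of 8 stem cell marker genes, 2 rose and 6 fell at that time, and their summed level was 9508 to 9963 scaled reads at 48 h against 13813 to 15337 at 0 h. Of 10 tested neural markers 1 rose and 7 fell, with the sum of all 12 at 1815 to 1946 scaled reads at 48 h against 2895 to 3139 at 0 h; the neuron markers Neurog2 and Dcx were near 0 at every time. Of 7 tested fibroblast markers 5 rose and 1 fell, with the sum of all 8 at 414.3 to 578.4 scaled reads at 48 h against 321.1 to 406.8 at 0 h. The part of such shifts in the protocadherin values was not tested, and in bulk RNA a change in the number of transcribing cells and a change in RNA per cell cannot be told apart.

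The units of a cluster are nested: the alpha units start one after another from 36930285 (Pcdha1) to 37143969 (Pcdhac2) of chromosome 18 and end together near 37187657, and the gamma units start from 37661945 (Pcdhga1) to 37819546 (Pcdhgc5) and end near 37841872 (mm10, in the coordinates of the files). Each unit therefore contains every unit that starts after it. In 510 of 510 differences between neighbouring units of the same library the value never increased along the cluster, so subtracting neighbours gives the signal of the stretch between consecutive starts. The stretch from Pcdha8 to the shared end, for example, held 69.3% of the deposited Pcdha1 value at 48 h against 47.6% at 0 h. Calls of neighbouring units are thus repeated readings of largely the same RNA and not independent results.

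Reads in overlapping units varied less between libraries than reads of units that stand alone. The dispersion index, the chi-square of recovered reads between the libraries of one time divided by its degrees of freedom, was 1.16 for 3215 genes of 3 to 30 mean reads that overlap no other unit on their strand, close to the 1 of pure counting error. It was 0.665 for 289 genes lying at a depth of 2 genes, 0.543 for the 14 alpha stretches and 0.208 for the 22 gamma stretches. Between 1 and 17 gene and non-coding units covered a given alpha stretch and between 5 and 25 a gamma stretch. Stretch values are therefore given as deposited for tests, and, for levels, as restored reads, the stretch value multiplied by the number of units that cover it. Restored reads assume equal division, and the sources used here do not give the counting step itself.

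Alpha transcription was very low at 0 h and rose at 24 and 48 h. All 8 alpha units that passed the minimum, Pcdha1 to Pcdha8, rose at 24 h, by 0.96 to 1.37, where 7.21% of tested genes rose, and at 48 h, by 1.42 to 1.81, where 7.65% did (limma, adjusted p at most 0.00874 at 24 h and at most 8.7e-06 at 48 h). None was called at 3 h, where the changes ran from -0.50 to -0.15 and 14.1% of genes were called. None was called at 12 h either, where they ran from 0.40 to 0.67, none had an unadjusted p under 0.05, and 15.0% of genes were called. These units passed the minimum largely through the late libraries: with the minimum applied at 0 h alone, only Pcdha1 was tested, and it rose at both times. With no minimum, 12 of the 14 alpha units rose at 24 h and 13 at 48 h. Without 0 h replicate 3, Pcdha2 was not called at 24 h (0.79, limma adjusted p = 0.0856).

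Pcdha1, the first and longest alpha unit, had 13.0, 11.7 and 6.86 scaled reads (0 h), 6.75, 6.999 and 6.98 (3 h), 13.5, 15.5 and 13.2 (12 h), 22.4, 26.2 and 20.3 (24 h), and 27.3, 30.2 and 29.0 (48 h). All libraries of 12, 24 and 48 h lay above all of 0 h, though the 12 h change of 0.43 was not called (limma adjusted p = 0.273). The change was 1.42 at 48 h against 0 h (SE 0.28, n = 3 each, limma adjusted p = 3.22e-06). Pcdha2, also among the 3 alpha units of highest level per kb, had 25.1, 26.3 and 26.0 scaled reads at 48 h against 9.76, 10.8 and 6.86 at 0 h, a change of 1.42 (SE 0.30). Pcdha3, the other of these, had 22.9, 26.3 and 25.2 scaled reads at 48 h against 8.13, 8.32 and 6.86 at 0 h, a change of 1.56 (SE 0.31). In both, no 48 h library overlapped one of 0 h.

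The fitted change at 48 h was highest at Pcdha8 and lower toward either end of the cluster. Pcdha5 changed by 1.59, Pcdha6 by 1.75, Pcdha7 by 1.70 and Pcdha8 by 1.81 (SE 0.34, limma adjusted p = 7.64e-07), the 4 largest among the tested alpha units. Pcdha8 had 4.88, 5.82 and 4.29 scaled reads (0 h), 4.73, 3.82 and 4.65 (3 h), 7.61, 9.10 and 8.77 (12 h), 13.3, 16.8 and 13.3 (24 h), and 18.5, 20.9 and 20.6 (48 h). Here the 12 h libraries also lay above all 0 h libraries, though the change of 0.67 was not called (limma adjusted p = 0.158). With no minimum, the changes of the units after it were 1.65 (Pcdha9), 1.54 (Pcdha10), 1.46 (Pcdha11) and 1.21 (Pcdha12). Every one of these proteins has a distinct set of extracellular cadherin repeats and the same cytoplasmic constant end.

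The C-type alpha genes, Pcdhac1 and Pcdhac2, are the last before the constant exons and in neurons are transcribed more constantly than the others. Pcdhac1 had 5.91, 5.42 and 6.88 scaled reads at 48 h against 2.44, 3.33 and 1.72 at 0 h, and Pcdhac2 had 2.95, 2.32 and 3.06 at 48 h against 1.63, 1.66 and 0.857 at 0 h. In each the 48 h libraries lay above the 0 h libraries, at levels of a few reads. Neither passed the minimum; with none, Pcdhac1 rose by 1.04 at 48 h (limma adjusted p = 0.0171) and Pcdhac2, at 0.68, was not called (limma adjusted p = 0.182).

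**Figure D1:**
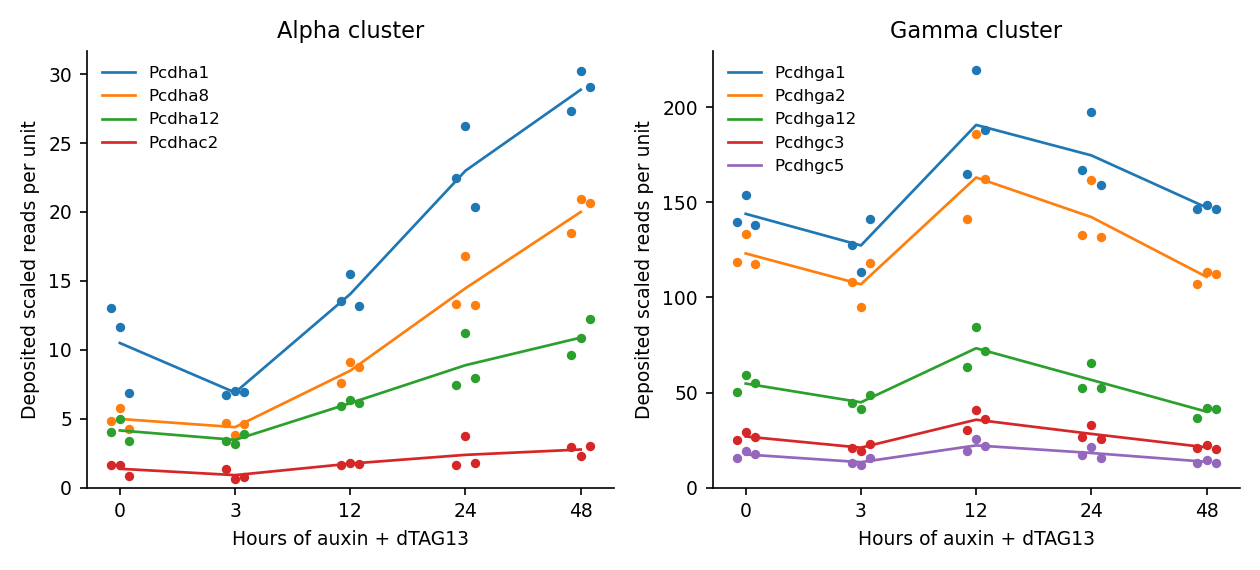
Deposited scaled reads per unit (y axis) at 0, 3, 12, 24 and 48 h (x axis, evenly spaced) for units of the alpha cluster (left) and gamma cluster (right). Points are the 3 libraries of each time and lines join their means: Pcdha1 averaged 28.9 at 48 h against 10.5 at 0 h, whereas Pcdhga1 peaked at 190.6 at 12 h and stood at 147.2 at 48 h against 143.9 at 0 h.

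The gamma cluster was transcribed at a higher level. The median change of its units was near that of all genes at 3 and 48 h, and above it at 12 and 24 h. In restored reads after rescaling, the whole cluster had 2257, 2206 and 2218 at 48 h against 1971, 2040 and 1995 at 0 h. On that scale every library from 12 h on lay above those of 0 h in this cluster. Its 22 units were all tested: their median change was -0.23 (3 h), 0.40 (12 h), 0.10 (24 h) and -0.37 (48 h), next to -0.24, 0.18, -0.08 and -0.37 for all tested genes. At 12 h, Pcdhga1 and Pcdhga2 rose, where 12.9% of genes did, and the other 20 gamma units lay between 0.33 and 0.43 without a call, 19 of the 22 having an unadjusted p under 0.05. At 3 and 24 h none was called, where 14.1% and 19.4% of genes were, and none had an unadjusted p under 0.05. At 48 h, 15 gamma units fell, where 58.4% of genes fell, and none rose. After rescaling, 0 gamma units fell at 48 h and 2 rose, with a median of -0.01, where 29.0% of genes fell and 29.8% rose, while all 8 tested alpha units still rose at 24 and 48 h, by 1.03 to 1.43 (24 h) and by 1.76 to 2.15 (48 h), next to 21.7% of genes rising at 24 h.

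Single libraries moved the gamma counts. The 15 units that fell at 48 h became 0 when 0 h replicate 2 or 48 h replicate 1 was left out, 1 when 0 h replicate 3 was, and 6 when 48 h replicate 2 or 3 was. The 2 that rose at 12 h became 19 without 12 h replicate 1 and 15 without 24 h replicate 2. They became 1 without 0 h replicate 2 or 24 h replicate 1, and 0 without 0 h replicate 1 or 3, 3 h replicate 1, 12 h replicate 2 or 3, or any one 48 h library. The alpha count at 48 h was 8 whichever library was left out. These fits kept the units that passed the minimum over all 15 libraries, which the alpha units did largely through the late ones. The 8 are also nested, so they are not 8 separate results.

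Pcdhga1, the first gamma unit, one of the 3 of highest level per kb and the only gamma unit with a positive change at 48 h, had 139.8, 153.9 and 138.0 scaled reads (0 h), 127.6, 113.3 and 141.1 (3 h), 164.8, 219.2 and 187.8 (12 h), 167.1, 197.4 and 159.2 (24 h), and 146.2, 148.7 and 146.7 (48 h). The 12 h libraries lay above all 0 h libraries, and the 48 h libraries fell within their range. Its change was 0.40 at 12 h (SE 0.14, limma adjusted p = 0.0416) and 0.03 at 48 h (limma adjusted p = 0.839). After rescaling the 48 h change was 0.40 (limma adjusted p = 4.29e-05). Pcdhga2 had 141.2, 185.6 and 162.3 scaled reads at 12 h against 118.7, 133.1 and 117.4 at 0 h, again without overlap, a change of 0.40 (SE 0.15, limma adjusted p = 0.0486).

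Pcdhga12, Pcdhgb8, Pcdhgb7 and Pcdhga11 had the largest falls of the gamma units at 48 h. Pcdhga12 had 36.9, 41.8 and 41.3 scaled reads at 48 h against 50.4, 59.1 and 54.9 at 0 h, which do not overlap. It fell by 0.44 (SE 0.18, limma adjusted p = 0.0251), Pcdhgb8 by 0.44, and Pcdhgb7 and Pcdhga11 by 0.42 each. After rescaling these changes were -0.09, -0.08, -0.06 and -0.06 and none was called. All 4 start close together, just before the long gap that leads to the C-type genes.

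Pcdhgc3, Pcdhgc4 and Pcdhgc5 are the C-type gamma genes, of which Pcdhgc4 is needed for the survival of mouse neurons after birth. Pcdhgc3 had 20.7, 22.5 and 20.6 scaled reads at 48 h against 25.2, 29.1 and 26.6 at 0 h, and Pcdhgc4 had 15.5, 17.0 and 15.3 at 48 h against 17.9, 22.5 and 20.6 at 0 h. Pcdhgc5, the last and shortest unit, had 13.0 to 14.7 at 48 h against 15.4 to 19.1 at 0 h. In each gene all 48 h libraries lay below all 0 h libraries, but the change of -0.33 was not called in any of the 3 (limma adjusted p = 0.192, 0.245 and 0.262), and after rescaling it was 0.02, 0.02 and 0.01.

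The times themselves differed for both clusters. At 48 h against 12 h all 8 tested alpha units rose, by 0.95 to 1.18, where 3.56% of genes rose, and all 22 gamma units fell, by 0.36 to 0.85, where 76.3% of genes fell (limma). Units of a cluster are nested, and the alpha units passed the minimum largely through the late libraries. After rescaling 11 gamma units fell and 1 rose, where 24.3% of genes fell and 26.6% rose. The ratio of Pcdha1 to Pcdhga1 within a library was taken on the log2 scale from scaled reads + 1. It was -2.38, -2.26 and -2.30 at 48 h against -3.33, -3.61 and -4.14 at 0 h, a difference of 1.38. This ratio is not wholly free of the scaling between libraries, because 1 was added to scaled values. At 24 h it was -2.84, -2.87 and -2.91, a difference of 0.82 from 0 h. At both times no library overlapped one of 0 h, and the two-sided exact permutation p was 0.1, the smallest that 3 against 3 libraries allow (0.2 after adjustment over the 4 times). The difference was -0.32 at 3 h (exact permutation p = 0.3) and 0.03 at 12 h (exact permutation p = 1).

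**Figure D2:**
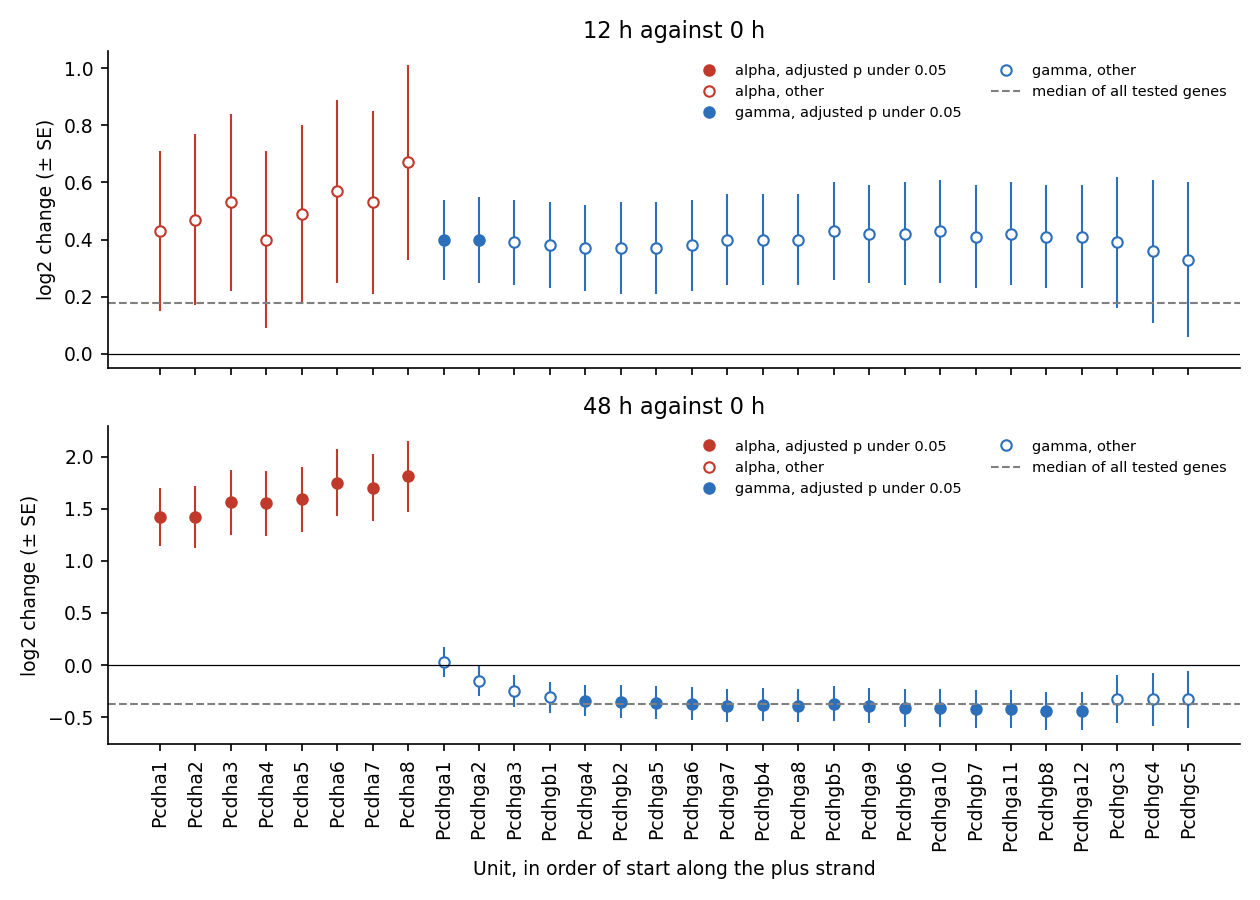
Change of each tested unit on the log2 scale (y axis, ± SE of the limma fit, 3 libraries per time) in order of start along the chromosome (x axis), at 12 h (top) and 48 h (bottom) against 0 h. Filled points have an adjusted p under 0.05 and the dashed line is the median of all tested genes: at 48 h the 8 alpha units lie between 1.42 and 1.81, and the gamma units run from 0.03 at Pcdhga1 to -0.44 at Pcdhga12, on both sides of the line.

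Restored reads showed how far apart the clusters stood. Over its 257.4 kb the alpha cluster held 108.5, 113.3 and 87.8 restored scaled reads (0 h), 85.0, 67.6 and 80.7 (3 h), 144.6, 162.7 and 153.4 (12 h), 225.0, 291.0 and 228.4 (24 h), and 315.8, 351.4 and 351.2 (48 h). From 12 h on all libraries lay above those of 0 h, and each later time above the one before it. The fold of 48 h over 0 h was 3.29, and 4.23 after rescaling. Over its 179.9 kb the gamma cluster held 2043, 2310 and 2091 restored scaled reads (0 h), 1855, 1672 and 2023 (3 h), 2470, 3267 and 2805 (12 h), 2261, 2758 and 2229 (24 h), and 1799, 1893 and 1875 (48 h), a fold of 0.864 at 48 h, and 1.11 after rescaling. Per kb the alpha cluster averaged 1.32 restored scaled reads at 48 h against 0.401 at 0 h, and the gamma cluster 10.3 at 48 h against 11.9 at 0 h. The median of all tested genes was 16.7 deposited scaled reads per kb at 0 h.

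The alpha signal that was added lay unevenly along the cluster. An IAPEz-int copy, the internal part of an intracisternal A particle retrovirus, lies on the minus strand between the starts of Pcdha7 and Pcdha8 (36981867 to 36988313), with an IAPLTR1a_Mm repeat at each end. The 7 stretches after it, from the Pcdha8 start on, held 269.4, 303.5 and 305.5 restored scaled reads at 48 h against 76.4, 89.8 and 65.2 at 0 h. The stretch that holds it had 30.2, 31.6 and 31.2 at 48 h against 16.6, 8.49 and 17.5 at 0 h. The 6 stretches before it, from Pcdha1 to the Pcdha7 start, had 16.3, 16.3 and 14.5 at 48 h against 15.5, 15.0 and 5.16 at 0 h. After and in the stretch with the copy no 48 h library overlapped one of 0 h, whereas before it the groups overlapped. After rescaling they did not overlap before it either, with 20.4, 18.98 and 17.2 at 48 h against 14.9, 13.2 and 4.92 at 0 h, a fold of 1.71 next to 4.89 after the copy. Of the restored reads added at 48 h, 91.3% lay after the copy, 7.11% in the stretch with it and 1.62% before it. In the values as deposited, with no restoring, these shares were 81.7%, 8.96% and 9.26%. The same parts span 195.2 kb, 18.5 kb and 43.6 kb of the 257.4 kb cluster, so the shares partly follow length. Restored scaled reads per kb were 1.5 at 48 h against 0.395 at 0 h after the copy. They were 1.67 against 0.766 in the stretch with it, and 0.36 against 0.272 before it. This grouping was made after the values were seen, so it is a description with no test.

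Within the part after the copy the density at 48 h was highest next to it and lower farther on. At 48 h against 0 h the restored density was 6.71 against 0.615 scaled reads per kb from Pcdha8 to Pcdha9, 4.00 against 0.499 from Pcdha9 to Pcdha10, 3.84 against 0.685 from Pcdha10 to Pcdha11, and 1.03 against 0.358 from Pcdha12 to Pcdhac1. It was 1.08 against 0.538 over the last stretch, which holds the constant exons. The deposited whole reads behind these, before multiplying by the number of covering units, are few. The stretch from Pcdha8 to Pcdha9 had 12 at 48 h against 1 at 0 h, summed over 3 libraries, and is covered by 12 units. The first stretch, at Pcdha1, had 12 whole reads at 48 h against 5 at 0 h and is covered by 1 unit, and Pcdha2 to Pcdha6 are each followed by a stretch of 0 to 5 whole reads at either time.

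**Figure D3:**
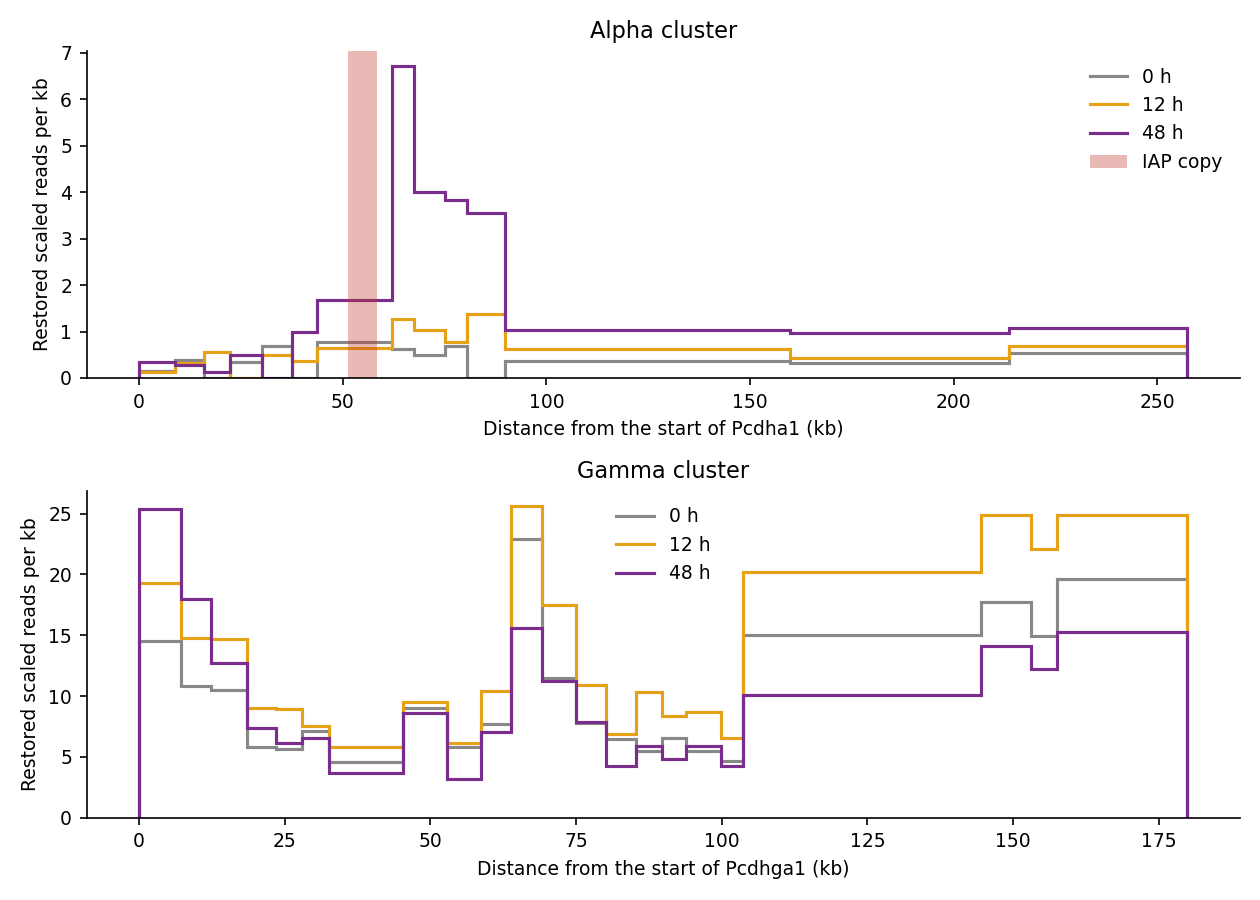
Restored scaled reads per kb on the plus strand (y axis, mean of 3 libraries) in each stretch between consecutive starts, against the distance from the start of Pcdha1 (top) or Pcdhga1 (bottom), at 0, 12 and 48 h. The shaded band is the IAP copy with its LTRs, and the highest alpha density at 48 h, 6.71, follows it; in the gamma cluster 48 h is highest at the first stretch, 25.4, and lowest from the Pcdhga12 start on.

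Non-coding units lie at the copy on both strands. The table lists a minus-strand unit over the copy, 36976201 to 36988401, with 1.63, 1.66 and 0 scaled reads (0 h), 0.675, 0.636 and 0 (3 h), 5.92, 5.46 and 7.90 (12 h), 43.2, 36.5 and 31.0 (24 h), and 70.9, 82.9 and 80.2 (48 h). Every library from 12 h on lay above all of 0 and 3 h. Its rise was 1.94 at 12 h (limma adjusted p = 3.16e-05), then 4.30 at 24 h and finally 5.37 at 48 h (SE 0.36, limma adjusted p = 3.87e-15), where 29.4%, 30.4% and 29.3% of 15730 tested non-coding units rose. Its mean at 0 h was 1.10, so it passed the minimum of 10 only through the 24 and 48 h libraries where it is high, and its tests are descriptions.

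A plus-strand unit, 36988601 to 37016401, starts at the edge of the LTR (36988313 to 36988651) at the 5′ end of that copy. It runs over Pcdha8 to Pcdha11 in the direction of the genes. Non-coding units here are listed in steps of 0.2 kb, so its start cannot be placed inside or outside the LTR. This unit had 10.3, 10.9 and 9.93 scaled reads at 48 h against 0.813, 0.832 and 0.857 at 0 h, or 41 whole reads against 3, a ratio of 12.4. The exact 95% interval, 3.97 to 62.8, treats whole reads as independent counts. The unit overlaps alpha units on its strand, so the interval may not measure counting error. Its mean was under the minimum, so it was not tested. Reads of this unit and of the alpha units there cannot be told apart. Among repeat copies, the 4 ERVK copies inside the alpha cluster summed to 23.3 ± 8.30 scaled reads at 48 h against 0 at 0 h (SD, n = 3 each), and none reached the minimum for a test. All 17 repeat copies that the table lists inside the alpha cluster lie on the minus strand.

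**Figure D4:**
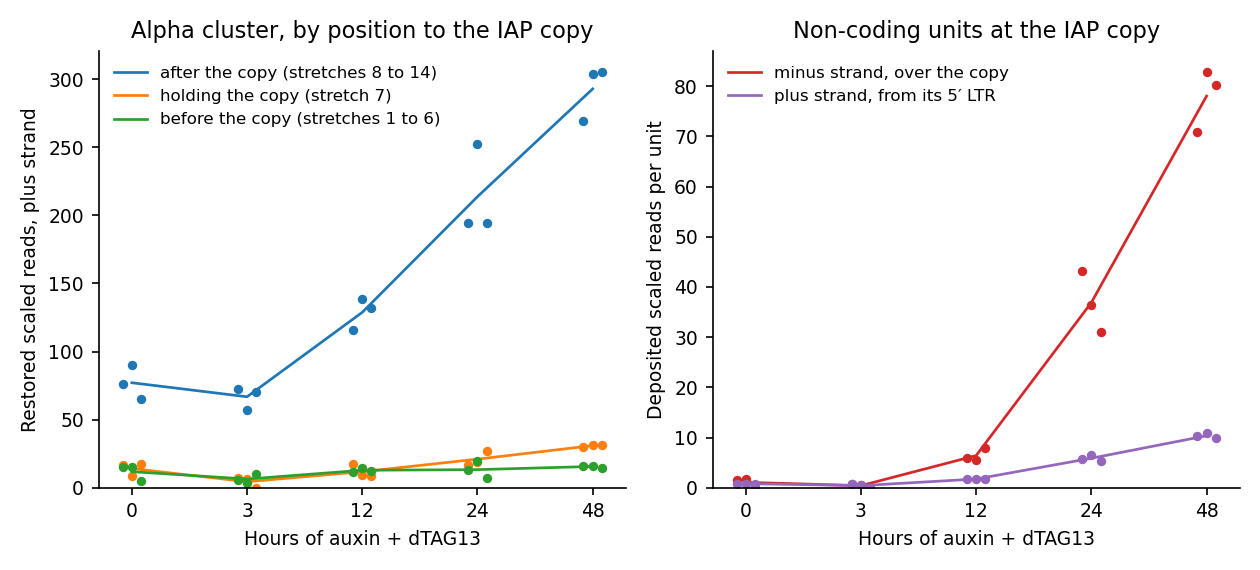
Left, restored scaled reads on the plus strand of the alpha cluster (y axis) by time (x axis) for stretches after, holding and before the IAP copy; right, deposited scaled reads of the non-coding units at that copy. Points are libraries and lines join means: after the copy the mean was 292.8 at 48 h against 77.1 at 0 h, and the minus-strand unit averaged 78.0 against 1.10.

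The region before the alpha cluster held further units that rose. In the 150 kb before Pcdha1, 5 of 6 tested non-coding units rose at 48 h and at 24 h, where 29.3% (48 h) and 30.4% (24 h) of non-coding units rose, 4 rose at 12 h, where 29.4% did, and 2 at 3 h, where 7.74% did. None of the 6 fell at these times. Only 2 of the 6 had a mean of at least 10 at 0 h, and 1 of these rose at 48 h; the other 4 passed the minimum through later libraries, so their rise was needed for them to be tested. The strongest in level, 36807401 to 36815401 on the plus strand, had 864.0, 955.2 and 867.3 scaled reads at 48 h against 67.5, 82.4 and 74.6 at 0 h, a change of 3.57 (limma adjusted p = 7.28e-23). Another, 36822801 to 36828201 on the minus strand, lies over an IAPEz-int copy and had 51.0, 51.9 and 76.4 at 48 h against 0, 0 and 0 at 0 h, which is at least 71.6-fold higher against a floor of 3 reads over the 0 h group. A further unit, 36874401 to 36885201 on the minus strand, had 59.1, 58.1 and 49.7 at 48 h against 0, 0.832 and 2.57 at 0 h, a change of 4.92. All 3 were far above their 0 h libraries.

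The genes nearest to the clusters changed less. Zmat2, the last protein-coding gene of the list before the alpha cluster, fell by 0.32 at 48 h (limma adjusted p = 0.0205), and after rescaling stood at 0.04. Vaultrc5, a vault RNA gene between it and the cluster, rose by 0.56 at 48 h (limma adjusted p = 5.37e-05), with means of 589.1 scaled reads at 48 h against 403.7 at 0 h. Its libraries overlapped, with 480.8, 715 and 571.6 scaled reads at 48 h against 282.9, 431.7 and 496.4 at 0 h. Of the 17 tested neighbouring genes on either side of and between the clusters, 1 rose and 10 fell at 48 h, where 7.65% of genes rose and 58.4% fell, with a median of -0.35, near that of all genes. After rescaling 4 rose and 2 fell, where 29.8% rose and 29.0% fell. Gnpda1, an enzyme of amino sugar metabolism, fell by 0.73, Hars2, the mitochondrial histidyl-tRNA synthetase, by 0.58, and Wdr55, a WD-repeat protein of the nucleolus, by 0.55. Diaph1, a formin gene that follows the gamma cluster on the other strand, fell by 0.35 (limma adjusted p = 0.0086) and stood at 0.01 after rescaling.

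The space between the clusters, 474.3 kb that hold 22 Pcdhb genes in GENCODE M21, was read only as a whole, since the rule found 0 beta units; single beta genes were not analysed here. Predicted genes run from the alpha into the gamma cluster. An alpha unit was subtracted from each: Pcdha4 for Gm37013, Pcdha6 for Gm38666 and Pcdha7 for Gm38667. The Pcdhga1 unit was subtracted as well, which leaves the plus-strand signal between the clusters. From Gm37013 it was 87.0, 89.0 and 82.3 scaled reads (0 h), 79.7, 64.3 and 76.8 (3 h), 101.4, 129.2 and 110.6 (12 h), 90.6, 107.6 and 95.5 (24 h), and 79.8, 94.5 and 88.6 (48 h). The 12 h libraries lay above those of 0 h and the 48 h libraries overlapped them. The change was 0.39 at 12 h (limma adjusted p = 0.0719) and 0.02 at 48 h (limma adjusted p = 0.904), and 0.38 at 48 h after rescaling (limma adjusted p = 0.00159). Estimates from Gm38666 and Gm38667 gave 0.02 and 0.04 at 48 h. Restored density was 0.564 scaled reads per kb at 48 h against 0.554 at 0 h, next to 0.401 for the alpha cluster at 0 h.

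Taf7, a general transcription factor gene on the minus strand in that space, was not called at 48 h (-0.22, limma adjusted p = 0.123), nor was Slc25a2, a mitochondrial carrier gene (0.07, limma adjusted p = 0.758). After rescaling Slc25a2 was called up (0.43, limma adjusted p = 0.0217) and Taf7 was not called (0.14, limma adjusted p = 0.0578). Of 4 tested non-coding units there 0 rose and 2 fell at 48 h, where 39.4% of non-coding units fell. After rescaling neither was called: the unit 37614001 to 37618801 stood at -0.43 (limma adjusted p = 0.148) and the unit 37652401 to 37655801 at -0.40 (limma adjusted p = 0.065). The first was also not called without 0 h replicate 3 (adjusted p = 0.0826) or 48 h replicate 1 (adjusted p = 0.106). The single ERVK copy listed there, RLTR10C, averaged 10.9 ± 4.09 scaled reads at 48 h against 0.857 ± 1.49 at 0 h (SD, n = 3 each), below the minimum for a test.

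Along the gamma cluster the stretches took different values. The first stretch, from Pcdhga1 to Pcdhga2, had 21.1, 20.8 and 20.6 scaled reads (0 h), 19.6, 18.5 and 23.3 (3 h), 23.7, 33.7 and 25.4 (12 h), 34.1, 35.6 and 27.4 (24 h), and 39.1, 35.6 and 34.4 (48 h). All libraries from 12 h on lay above those of 0 h. It rose by 0.60 at 24 h (limma adjusted p = 0.0426) and by 0.77 at 48 h (SE 0.23, limma adjusted p = 0.00162), and by 1.13 at 48 h after rescaling. The next stretch, to Pcdhga3, had 14.8, 16.3 and 16.1 at 48 h against 10.6, 9.15 and 8.57 at 0 h and rose by 0.68 (limma adjusted p = 0.0418), a call lost without any one of 0 h replicates 2 and 3 and the 48 h libraries (adjusted p = 0.0682 to 0.100). The stretch after it was not called (0.28, limma adjusted p = 0.428).

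Toward the end of the cluster the changes at 48 h were negative before rescaling. The stretch from Pcdhga12 to Pcdhgc3, the longest at 40.8 kb, had 16.3, 19.4 and 20.6 scaled reads at 48 h against 25.2, 30.0 and 28.3 at 0 h and fell by 0.55 (SE 0.23, limma adjusted p = 0.0267). The call was lost without 0 h replicate 2 or 3 or 48 h replicate 1 (adjusted p = 0.0901, 0.0611 and 0.115), and after rescaling the change was -0.20. The last stretch, with the constant exons, stood at -0.33 (limma adjusted p = 0.262), and at 0.01 after rescaling. The share of the deposited Pcdhga1 value lying in its first stretch was 24.7% at 48 h against 14.5% at 0 h, and such shares do not depend on the scaling between libraries. Restored reads would give the first stretch a smaller share, since 5 units cover it and 25 cover the last. Over stretches 4 to 18, none of which reached the minimum, restored reads were 575.3, 566.3 and 569.7 at 48 h against 643.7, 700.0 and 616.0 at 0 h. After rescaling the direction turned, with 721.7, 660.1 and 674.1 at 48 h against 620.9, 618.0 and 587.7 at 0 h, a fold of 1.13.

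Non-coding units also lie in the gamma cluster. A plus-strand unit over the gamma start, 37655801 to 37713001, had 99.7, 98.4 and 94.0 scaled reads at 48 h against 75.6, 78.2 and 72.0 at 0 h and rose by 0.37 (limma adjusted p = 0.0331), a call lost without 0 h replicate 1 or 3 or 48 h replicate 1 or 2 (adjusted p = 0.0632 to 0.0921). A minus-strand unit, 37752001 to 37768201, which covers the predicted gene Gm26672 and lies opposite Pcdhgb7 to Pcdhga12, had 98.2, 123.2 and 107.7 at 48 h against 58.5, 65.7 and 76.3 at 0 h. Its rise was 0.56 (12 h), 0.84 (24 h) and 0.71 (48 h), with a limma adjusted p = 0.000184 at 48 h. Gamma had no ERVK copy in the table, and its 22 listed repeat copies, all on the minus strand, summed to 24.5 ± 5.08 scaled reads at 48 h against 18.5 ± 7.32 at 0 h (SD, n = 3 each).

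Other protocadherins lie outside the clusters and are not spliced to shared exons. Of 8 tested non-clustered protocadherins, 3 rose and 3 fell at 48 h, where 7.65% of genes rose and 58.4% fell, with a median of 0.17. After rescaling 5 rose and 0 fell, where 29.8% of genes rose and 29.0% fell. Pcdh7 rose by 1.31 (limma adjusted p = 8e-21), Pcdh18 by 1.04 and Pcdh19 by 0.95, while Pcdh11x fell by 0.42. Pcdh7 averaged 546.8 scaled reads at 48 h against 218.9 at 0 h. Pcdh1 and Pcdh12 lie near the clusters on chromosome 18; Pcdh1 fell by 0.30 (limma adjusted p = 0.0492) and Pcdh12 was below the minimum.

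Genes for the factors that act on the clusters had a median near that of all genes. Of 30 genes for architecture, silencing and DNA methylation factors, 0 rose and 22 fell at 48 h, where 7.65% of all tested genes rose and 58.4% fell, with a median of -0.35. After rescaling 7 rose and 6 fell, where 29.8% of genes rose and 29.0% fell. Ctcf, which binds the variable promoters, fell by 0.34 and stood at 0.02 after rescaling. Rest, a repressor of neuronal genes, fell by 0.70 (limma adjusted p = 1.05e-07), Ehmt2, a histone lysine 9 methyltransferase, by 0.71, Trim28, which brings Setdb1 to retroviral repeats, by 0.66, and Cbx1, an HP1 protein, by 0.64. Setdb1 transcription was not called at 48 h (-0.21, limma adjusted p = 0.129), nor was Suv39h1 (-0.08, limma adjusted p = 0.562). After rescaling both were called up, Setdb1 at 0.15 (limma adjusted p = 0.00379) and Suv39h1 at 0.28 (limma adjusted p = 5.87e-05). Suv39h2, deleted in all groups, still gave 803.3 scaled reads at 48 h against 1091 at 0 h over its unit. The labels do not give its deleted part, so these values are no check of protein loss.

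Of 16 genes for proteins that bind or signal below protocadherin cytoplasmic ends, 2 rose and 4 fell at 48 h, where 7.65% of genes rose and 58.4% fell, with a median of -0.17. Ret, a receptor kinase, rose by 0.51 (limma adjusted p = 0.0109) and Prkca by 0.27 (limma adjusted p = 0.0489). Ptk2b, a kinase that the constant ends hold back, fell by 0.92 (limma adjusted p = 8.53e-12), and by 0.56 after rescaling. Wasf2 and Brk1, of the actin-regulating WAVE complex, fell by 0.41 and 0.35, near the median of all tested genes (-0.37). After rescaling these 2 stood at -0.05 and 0.01. After rescaling 12 of the 16 rose and 1 fell, where 29.8% of genes rose and 29.0% fell.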

How the data were processed

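Per the submitters' processing notes, STAR 2.5.2a, DESeq2 and deepTools were used with mm10 (GRCm38). The authors deposited signal per transcription unit and library: whole numbers of reads divided by 1 size factor per library, with labelled yeast RNA spiked in (1 µg to 110 µg of total RNA, labelled for 10 minutes with 1 mM 4-thiouridine; auxin 100 µg/ml, dTAG13 0.5 µM, per the labels' protocols). Dividing by the step gave whole numbers for 99.997% or more of values (tolerance 0.05). The deposited averages equalled these values per kb in all 1418995 values compared and were not used further. The design assumed values of this kind.

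Tests used limma 3.58.1 with an intensity trend on log2(value + 1), all 15 libraries in one fit, a minimum mean of 10, and Benjamini-Hochberg adjustment over 15261 genes (R 4.3.3); stretches were adjusted with them and non-coding units among themselves. The fit was tested on simulated data. As alternatives, edgeR 4.0.16 on recovered reads with the deposited scaling called 10047 genes at 48 h (1166 up) against 10073 by limma (1167 up), and DESeq2 1.42.0 called 9841 (1098 up). With TMM edgeR called 8983 (4329 up), and limma after rescaling 8972 (4544 up); scaling, pseudocount, minimum, trend, groups fitted, replicate block and left-out libraries were varied. Intervals treat whole reads as independent counts, which overlapping units may not give, and cover no other variation. Reads carry no molecular identifiers. Replicate numbers did not pair samples: 0 of 30 same-number pairs had a correlation over 0.1.

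The clusters, gene lists (7) and stretches were chosen with earlier results of these data known. Within each cluster the text names C-type genes, the 3 units of highest level per kb, up to 4 with the largest rise and fall at 48 h, and the first and last; of other lists, up to 4 genes of smallest adjusted p and genes beside the clusters. Other units and genes named were chosen after their values were seen. Symbols matched GENCODE M21 for 35 of 36 units. No sequence is printed.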

Additional observations from a re-analysis of the deposited data

Results flagged for a closer look

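The effects at 48 h and at 12 h differed by direct test (48 h against 12 h, limma) in 8 of 8 tested alpha units, which were higher at 48 h, and in 22 of 22 gamma units, which were lower at 48 h. Units of a cluster are nested, so these counts are not separate results. The alpha units passed the minimum largely through the late libraries, and with the minimum at 0 h alone only Pcdha1 was tested. Relative to 0 h the alpha units changed by 1.42 to 1.81 at 48 h and by 0.40 to 0.67 at 12 h, and the gamma units by -0.44 to 0.03 at 48 h and by 0.33 to 0.43 at 12 h. The gamma difference had the same direction as the median of all tested genes, which was -0.54 at 48 h against 12 h. After rescaling 11 gamma units were lower and 1 was higher.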

How the results depend on the processing

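Alpha units rose at 24 and 48 h in every fit, though their number followed the minimum mean: 13 at 48 h with no minimum, and 1 at 24 h, at 48 h and at 48 h against 12 h with the minimum at 0 h alone. Without the intensity trend 1 alpha unit fell at 3 h, and 5 alpha and 4 gamma units rose at 12 h. Gamma units that fell at 48 h numbered 0 after rescaling or with edgeR and TMM, and 1 with no minimum; left-out libraries gave 0 to 16. Gamma units that rose at 48 h numbered 2 after rescaling and 1 with TMM, and at 24 h 3 with either. At 12 h gamma units that rose numbered 1 with TMM, 4 with edgeR and the deposited scaling, 0 with no minimum or only the times compared, 1 with the minimum at 0 h, 8 with the replicate block and 0 to 19 over left-out libraries. At 48 h against 12 h, 11 fell and 1 rose after rescaling, and 9 fell with TMM. Rescaling turned Pcdhgc3, Pcdhgc4 and Pcdhgc5 to 0.02, 0.02 and 0.01 at 48 h, and TMM turned Pcdhgc3 and Pcdhgc4 to 0.01 and 0.00. The cluster folds of 48 h over 0 h were 3.29 (alpha) and 0.864 (gamma) from restored reads, 2.75 and 1.02 from the longest unit, and 4.23 and 1.11 after rescaling; left-out libraries gave 3.06 to 3.46 and 0.843 to 0.898. Apart from the lower number of tested units under a stricter minimum, the cause was not tested. The replicate block moved no other count by over 1.5 times. Same-numbered samples shared only a number. The alpha stretches hold too few reads for a test of each.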
